A study of Homo sapiens with 8 samples.

Results

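Translation initiation and elongation factors are the proteins that bring ribosomes onto mRNA and move them along it. Their genes were taken as all protein-coding genes whose symbols begin with EIF or EEF, together with PABPC1, GSPT1, ETF1 and TPT1. The gene table used here lists 75 such genes, and 46 of them held at least 1 peak, 93 peaks of 31395 in all and 46 genes of 6773 protein-coding genes with a peak. A peak counted for a gene only if it overlapped no second protein-coding gene. ETF1, EIF2S1, EIF4G3 and EEF2K are among the 29 without a peak assigned in this way. The study pulled down fragmented poly(A) RNA with anti-ac4C (acRIP), which binds N4-acetylcytidine, the acetylated base that the enzyme NAT10 makes in RNA. It used 2 human osteosarcoma cell lines, 143B, which was derived from HOS, and HOS itself. Each line had a control library (NC) and a library labelled sgNAT10, by its name a guide RNA against NAT10, with 1 library per group. The labels do not say whether these cells were 1 clone or a pool. Values are the reads counted in each peak (GRCh38) and added up over the peaks of a gene. The count columns name a line and a genotype but not the assay, and were taken as acRIP from the table they stand in. No spike-in is named. The input libraries were not used here, and a difference in these counts mixes the amount of an RNA with its enrichment.

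Initiation begins with eIF2, which carries the initiator tRNA, and with eIF3, a large complex that holds the small ribosomal subunit. The eIF4 proteins recognise the mRNA cap, unwind the leader and connect it to the ribosome. Elongation factors then deliver tRNAs and translocate the ribosome, and release factors end the chain. Phosphorylation of eIF2 by stress kinases and control of eIF4E by inhibitor proteins are the classical switches of protein synthesis, and growing tumour cells depend on both.

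Many mRNAs of this machinery start with a terminal oligopyrimidine tract (TOP), a C at the first transcribed base followed by further C or T bases, through which mTOR and LARP1 control their translation. The start sites of the following 8 members, from RefSeq (GRCh38.p14), are shown because they show the tract at the head of genes described later. Each run holds 10 bases before the annotated start and 20 from it, 5′ to 3′ on the gene's strand, with the pyrimidine tract that begins at the start site in capitals. EEF1G and EIF4G2 are shown beside them as members with no C at the annotated start.
EEF1A1: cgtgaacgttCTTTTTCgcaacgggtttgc
EEF1B2: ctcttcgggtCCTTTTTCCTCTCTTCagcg
EEF2: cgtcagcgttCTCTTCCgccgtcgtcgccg
TPT1: ctgagtcggcCTTTTCCgcccgctcccccc
EIF3F: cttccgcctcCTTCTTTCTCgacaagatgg
EIF3K: tttccaccacCTCTTCCTgttcccgtcctt
EIF4B: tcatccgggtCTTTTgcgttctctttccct
EIF4A2: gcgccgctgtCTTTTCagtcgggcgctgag
EEF1G: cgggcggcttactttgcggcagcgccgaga
EIF4G2: acgccttagcgccagcagtgagtcggagct
The windows lie at chr6:73521013-73521042 for EEF1A1, chr2:206159885-206159914 for EEF1B2, chr19:3985444-3985473 for EEF2 and chr13:45341164-45341193 for TPT1. Those of EIF3F and EIF3K lie at chr11:7987327-7987356 and chr19:38619178-38619207, and those of EIF4B and EIF4A2 at chr12:53006446-53006475 and chr3:186783567-186783596. Those of EEF1G and EIF4G2 lie at chr11:62573872-62573901 and chr11:10808907-10808936. A C at the start followed by at least 4 bases that are each C or T, read on the gene's strand only, was found at an annotated start of 10 of the 37 members with an entry, EIF2A and EIF2S3 being the others. The same search found it in 6.24% of 15843 protein-coding genes with an entry and at 4.54% of their 22199 starts. EEF1B2, with more than 1 listed start, has the tract at the start shown. A match describes these letters and not a mapped transcript end.

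Totals over all peaks ranged from 20107718 to 24785306 counts per library, and the 45 of these genes that passed the filter on low counts held 0.263% (NC) and 0.292% (sgNAT10) of all counts in 143B and 0.40% and 0.455% in HOS. Counts were scaled with TMM factors and are given as CPM, which sets all libraries to a common size. The 143B library labelled sgNAT10 stood apart, with Spearman correlations across peaks of 0.583 to 0.718 with the other libraries, which correlated at 0.803 to 0.865 among themselves. Without it no 143B comparison remains. NAT10 itself had 1 peak, with 180 counts in HOS NC and 63 in HOS sgNAT10. It had 65 in 143B NC but 130 in the 143B library labelled sgNAT10. This goes against that label only as far as acRIP counts of 1 peak, which mix RNA amount with enrichment, can show it. Of 9 mesenchymal and osteoblast markers 6 had a peak (summed level 274 CPM in 143B sgNAT10 and 520 to 994 CPM in the others), COL1A1, COL1A2 and CDH11 being without one, of 4 epithelial markers 2 (13.9 to 55.1 CPM), of 3 blood markers only PTPRC (at most 0.780 CPM), and neither endothelial marker. In bulk samples fewer cells of a type and less RNA per cell cannot be told apart.

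In each line the shift of a gene is its log2 CPM in the library labelled sgNAT10 minus that in NC, with a 95% interval that covers counting error only. Of the 46 genes, 45 passed the filter on low counts (all but EIF2AK3). In 143B 27 of them had a shift above 0 and 18 below, with a median of 0.39, where 54.9% of 6299 protein-coding genes lay above 0 with a median of 0.14. In HOS 6 lay above 0 and 39 below, with a median of -0.56, where 55.1% of protein-coding genes lay below 0 with a median of -0.12. This HOS split rests on the scaling: with library totals alone it was 23 above and 22 below, and the 143B split was 33 and 12. Members above 0 in 143B and below 0 in HOS numbered 24, against 31.3% of all protein-coding genes, and 15 lay below 0 in both lines, against 23.8%.

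Large shifts were not more common among these genes than among others in 143B. In 143B 6 members were 2-fold or more higher, where 20.4% of protein-coding genes were, and 6 were 2-fold or more lower, where 19.5% were. In HOS 0 members were 2-fold or more higher (13.0% of protein-coding genes) and 9 were 2-fold or more lower (15.4%). These 9 were EIF4G2, EIF4H, EIF4EBP2, EIF4E2, EIF4A3, EIF3B, EIF3E, EIF2B2 and EIF5A, of which 5 belong to eIF4. These counts rest on the TMM scaling. With library totals alone 16 members were 2-fold higher and 0 were 2-fold lower in 143B, and 0 were 2-fold lower in HOS.

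The test across lines called no gene. With the edgeR quasi-likelihood test, cell line as a block and Benjamini-Hochberg adjustment, 0 of 8109 genes passed an adjusted p of 0.05 (0% called), with 281 at an unadjusted p under 0.05. DESeq2 gave 0 genes (220 unadjusted) and limma-trend 0 (293 unadjusted). None of the 45 members reached an unadjusted p under 0.05 in any of the 3, and the smallest among them with edgeR was 0.194, that of EIF3E (log2 fold change -1.10, SE 0.80, adjusted p = 0.988). The 2 lines are the only repeats, which left 1 residual degree of freedom. In data simulated for this test with the spread of these libraries it recovered 0% of genes changed 2-fold and 60.8% of those changed 8-fold. What follows therefore describes these 4 libraries.

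**Figure D1:**
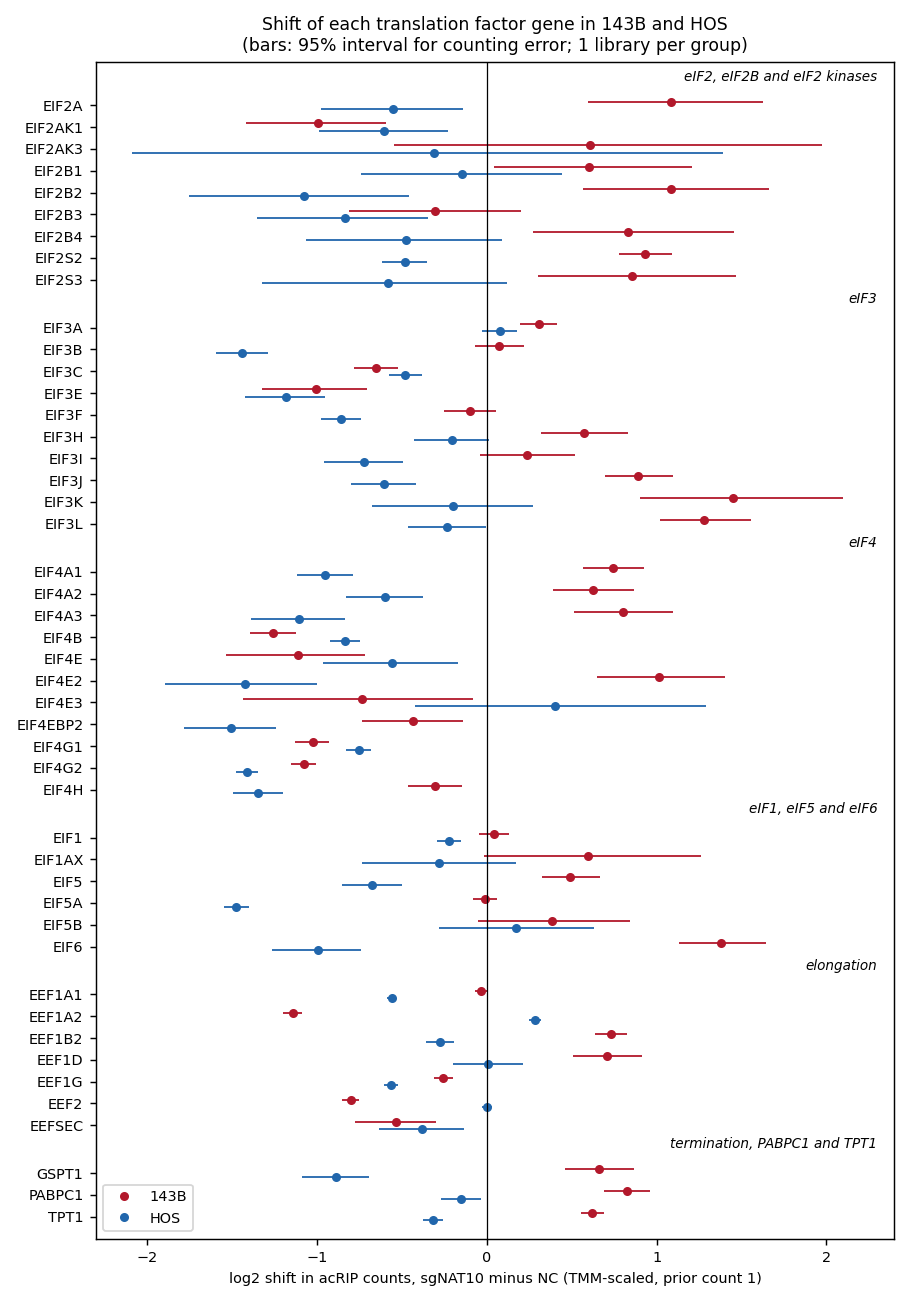
Log2 shift (sgNAT10 minus NC, TMM-scaled, horizontal axis) of each of the 46 genes in 143B (red) and HOS (blue), ordered by role, with bars for the 95% counting interval and 1 library per group. In HOS 39 of the 45 tested genes lie left of 0, while the 143B points spread to both sides, from -1.26 for EIF4B to 1.45 for EIF3K.

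Among the elongation factors, the genes with the highest levels differed between the lines in how they shifted. EEF1A1 encodes eEF1A, which delivers tRNAs to the ribosome, and had 486 (NC) and 475 CPM (sgNAT10) in 143B and 1163 and 789 CPM in HOS. In all such pairs NC stands first. Its sum lay at -0.03 (-0.07 to 0.01) in 143B and -0.56 (-0.59 to -0.53) in HOS. The 143B sum joins 2 peaks of opposite direction, 1 that went from 2800 to 6733 counts (0.77) and 1 that went from 6903 to 6673 (-0.55), and in HOS the same peaks lay at -0.22 and -0.69. EEF1A2, the isoform best known from muscle and nerve, went the other way, with 333 and 151 CPM in 143B and 615 and 750 CPM in HOS. Its shift was -1.14 (-1.20 to -1.09) in 143B and 0.28 (0.25 to 0.32) in HOS, the only member whose HOS interval lay above 0. EEF2, the translocase, had 371 and 213 CPM in 143B and 824 and 825 CPM in HOS. It thus lay at -0.80 (-0.85 to -0.75) in 143B and 0.00 (-0.03 to 0.03) in HOS. The 143B library labelled sgNAT10 was the lowest of the 4 for both EEF1A2 and EEF2.

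The exchange factor eEF1B reloads eEF1A with GTP, and the gene sums of its subunits did not move as 1 group. Their peaks near a gene end did lie alike in 143B, at 0.91 for EEF1B2, 0.71 for EEF1D and 0.92 for EEF1G. In HOS these peaks lay at -0.24, 0.01 and -0.08. The EEF1G sum also holds inner peaks, at -1.06 to -0.75 in 143B. EEF1B2 had 69.3 and 115 CPM in 143B and 127 and 105 CPM in HOS, that is shifts of 0.73 (0.64 to 0.82) and -0.28 (-0.36 to -0.19). EEF1D lay at 0.71 (0.51 to 0.92) in 143B and 0.01 (-0.20 to 0.21) in HOS. EEF1G had 234 and 196 CPM in 143B and 514 and 347 CPM in HOS, and was lower in both, at -0.26 (-0.31 to -0.20) and -0.56 (-0.61 to -0.52). EEFSEC, the factor for selenocysteine, was lower in both as well, at -0.54 (-0.77 to -0.30) and -0.38 (-0.63 to -0.13). These directions rest on the scaling. Library totals alone add 0.34 to every 143B shift and 0.58 to every HOS shift. That exceeds the size of the EEF1G shift in both lines and of the EEFSEC shift in HOS. Over the 7 elongation genes the median was -0.26 in 143B, with 2 above 0, and -0.28 in HOS, with 3 above 0. Relative to the median of all protein-coding genes these are -0.40 and -0.16.

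With TMM scaling GSPT1, PABPC1 and TPT1 shared a direction within each line. GSPT1 encodes the release factor eRF3 and had 14.9 and 23.6 CPM in 143B and 28.7 and 15.5 CPM in HOS, that is shifts of 0.66 (0.46 to 0.87) and -0.89 (-1.09 to -0.69). PABPC1 encodes the poly(A)-binding protein that joins the tail to eIF4G, with 31.8 and 56.2 CPM in 143B and 60.3 and 54.3 CPM in HOS, that is shifts of 0.82 (0.69 to 0.96) and -0.15 (-0.27 to -0.03). TPT1 encodes the translationally controlled tumour protein, with 123 and 189 CPM in 143B and 269 and 216 CPM in HOS, that is shifts of 0.62 (0.55 to 0.69) and -0.32 (-0.37 to -0.26). For each of these 3 genes 143B NC was the lowest library, and HOS NC was the highest. The HOS direction and the rank of HOS NC rest on the scaling. With library totals alone the HOS median of the 3 was 0.27, and only GSPT1 stayed below 0 there. HOS NC was then not the highest library for any of them.

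The genes of eIF2 and its regulators were mostly higher in the 143B library labelled sgNAT10 and lower in that of HOS. EIF2S2, the beta subunit of eIF2, had the deepest counts of the group, with 22.7 and 43.3 CPM in 143B and 53.1 and 38.0 CPM in HOS, that is shifts of 0.93 (0.78 to 1.09) and -0.48 (-0.62 to -0.35). EIF2S3, the gamma subunit, had a single peak with 36 and 93 counts in 143B and 38 and 32 in HOS, and lay at 0.86 (0.30 to 1.47) and -0.58 (-1.32 to 0.12). The exchange factor eIF2B recharges eIF2, and of its subunit genes EIF2B2 lay at 1.08 (0.57 to 1.66) and -1.07 (-1.75 to -0.46). EIF2B1 lay at 0.60 and -0.15, EIF2B4 at 0.83 and -0.48, and EIF2B3 at -0.30 and -0.83, on 34 to 118 counts per library. EIF2A, which can deliver the initiator tRNA without eIF2, lay at 1.08 (0.60 to 1.62) and -0.55 (-0.98 to -0.14).

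With TMM scaling the kinase gene EIF2AK1, whose product responds to low haem, was the exception with both counting intervals below 0. It had 6.11 and 3.05 CPM in 143B and 7.12 and 4.67 CPM in HOS, with shifts of -0.99 (-1.42 to -0.59) and -0.60 (-0.99 to -0.23). Library totals alone add 0.58 to every HOS shift, about the size of this one. EIF2AK3, the kinase of the endoplasmic reticulum stress response, had 7 to 20 counts per library, too few to show a difference at this depth. Of the 8 tested genes of this group 6 were above 0 in 143B (median 0.84) and 8 of 8 were below 0 in HOS (median -0.57), or 0.70 and -0.45 relative to all protein-coding genes.

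The subunit genes of eIF3 spread from -1.0 to 1.45 in 143B and from -1.44 to 0.08 in HOS. At the upper end in 143B were EIF3K at 1.45 (0.90 to 2.10), EIF3L at 1.28 (1.02 to 1.55) and EIF3J, the loosely bound subunit, at 0.89 (0.70 to 1.09), followed by EIF3H at 0.57. Their HOS shifts were -0.20, -0.23, -0.60 and -0.21. EIF3L, for example, had 7.61 and 18.6 CPM in 143B and 16.7 and 14.2 CPM in HOS. The single peak of EIF3K lies 37 bp from the finish of the gene and that of EIF3L 793 bp from a gene end. That of EIF3E lies 12448 bp from the nearest end. The part of peak place in the spread of eIF3 was not tested. EIF3E was lower in both lines, with 214 and 150 counts in 143B and 412 and 231 in HOS, shifts of -1.0 (-1.32 to -0.70) and -1.18 (-1.42 to -0.95). EIF3C of the core was lower in both too, at -0.65 (-0.78 to -0.52) and -0.48 (-0.58 to -0.38). Its HOS shift is smaller in size than the 0.58 that library totals alone add to every HOS shift. Reads of EIF3C may be shared with its near-identical copy EIF3CL, which held no assigned peak.

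EIF3B, a core subunit that scaffolds the complex, had 32.8 and 34.5 CPM in 143B and 60.8 and 22.4 CPM in HOS, that is shifts of 0.07 (-0.07 to 0.22) and -1.44 (-1.59 to -1.29). EIF3A, the largest subunit, was the only eIF3 gene above 0 in HOS, at 0.08 (-0.03 to 0.18), and lay at 0.30 (0.20 to 0.41) in 143B. EIF3F lay at -0.10 and -0.86, and EIF3I at 0.23 and -0.72. The median of the 10 genes was 0.27 in 143B, with 7 above 0, and -0.54 in HOS, with 9 below 0, or 0.13 and -0.43 relative to all protein-coding genes.

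The eIF4 group had the lowest median of the 6 role groups in both lines, at -0.44 in 143B and -0.95 in HOS, or -0.58 and -0.84 relative to all protein-coding genes. With the highest peak of each gene alone the eIF4 group was not the lowest in 143B, at -0.79 beside -0.81 for elongation. Both values are relative to the highest peaks of all protein-coding genes. EIF4G2, a scaffold that lacks the cap-binding contact of eIF4G, had 187 and 88.5 CPM in 143B and 318 and 120 CPM in HOS, that is shifts of -1.08 (-1.15 to -1.0) and -1.41 (-1.48 to -1.34). EIF4G1, the main scaffold of the cap complex, had 99.6 and 48.9 CPM in 143B and 193 and 115 CPM in HOS, that is shifts of -1.03 (-1.13 to -0.93) and -0.75 (-0.83 to -0.68). EIF4B, a cofactor of the helicase, had 60.0 and 25.0 CPM in 143B and 145 and 81.3 CPM in HOS, that is shifts of -1.26 (-1.40 to -1.12) and -0.83 (-0.92 to -0.75). In each of these 3 genes the library labelled sgNAT10 was below NC in both lines. EIF4E, the cap-binding protein, was below NC in both as well, at -1.11 (-1.53 to -0.72) and -0.56 (-0.97 to -0.17), on 85 to 131 counts per library. Its HOS direction rests on the TMM scaling, as library totals alone add 0.58 to every HOS shift.

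The gene sums of the helicases lay otherwise in 143B. Those of EIF4A1, EIF4A2 and EIF4A3 rest on 1 peak each, 42, 57 and 894 bp from the finish of the gene. Among the genes with more peaks, the peak nearest the finish lay at 1.11 for EIF4G2, 1.34 for EIF4H and -0.01 for EIF4G1 in 143B. The part of peak place in this difference was not tested. EIF4A1, the helicase of the cap complex, had 18.2 and 30.5 CPM in 143B and 42.2 and 21.8 CPM in HOS, that is shifts of 0.74 (0.57 to 0.93) and -0.95 (-1.12 to -0.79). Its close relative EIF4A2 lay at 0.62 and -0.60, and EIF4A3, which works in the exon junction complex, at 0.80 and -1.10. EIF4E2, a cap-binding repressor, had 4.06 and 8.23 CPM in 143B and 7.40 and 2.73 CPM in HOS, that is shifts of 1.01 (0.65 to 1.40) and -1.43 (-1.90 to -1.0), and thus the widest gap between the lines of all members. EIF4H, a second helicase cofactor, lay at -0.31 and -1.35, and EIF4EBP2, an inhibitor of eIF4E, at -0.44 (-0.73 to -0.14) and -1.50 (-1.78 to -1.24), the lowest HOS shift of all. EIF4E3, with 20 to 43 counts, lay at -0.73 and 0.40, the latter with an interval on both sides of 0.

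EIF6, which keeps free large ribosomal subunits from joining too early, differed in direction between the lines, with 8.06 and 21.1 CPM in 143B and 17.2 and 8.61 CPM in HOS. Its shifts were 1.38 (1.13 to 1.65) and -1.0 (-1.26 to -0.74). Its only peak lies 25 bp from the finish. Of peaks within 500 bp of a finish in all protein-coding genes, 85.2% were above 0 in 143B and 14.8% in HOS. EIF5A, which helps ribosomes through difficult stretches such as runs of proline, had 142 and 141 CPM in 143B and 264 and 94.8 CPM in HOS, that is shifts of -0.01 (-0.08 to 0.06) and -1.48 (-1.55 to -1.40). The 143B sum of EIF5A joins an earlier peak that went from 1104 to 771 counts (-1.01) and a peak 60 bp from the finish that went from 1730 to 3200 (0.39), while in HOS both were lower, at -1.58 and -1.40. EIF1, a guardian of start codon choice, lay at 0.04 and -0.22, and EIF5, which triggers GTP hydrolysis on eIF2, at 0.49 and -0.67. EIF1AX lay at 0.60 and -0.28 and EIF5B, which joins the subunits, at 0.39 and 0.17, each with intervals that reached both sides of 0 in both lines. The 6 genes had medians of 0.44 in 143B and -0.48 in HOS, or 0.30 and -0.36 relative to all protein-coding genes.

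**Figure D2:**
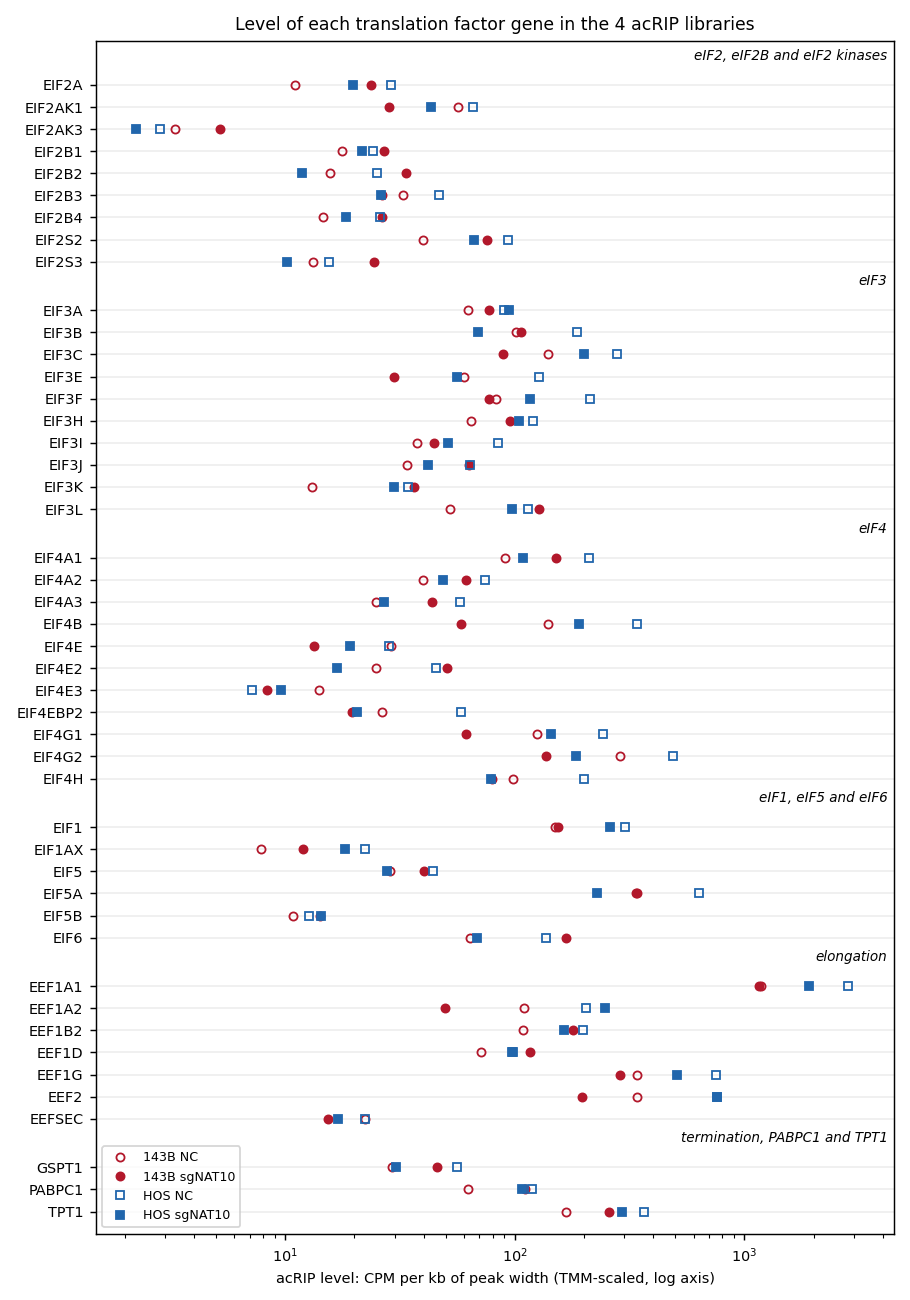
Level of each of the 46 genes in CPM per kb of peak width (log axis) in 143B NC (open circles), 143B sgNAT10 (filled circles), HOS NC (open squares) and HOS sgNAT10 (filled squares), ordered by role. EEF1A1 lies highest in all 4 libraries (1157 to 2830), and with TMM scaling HOS NC lies above 143B NC for 42 of the 45 tested genes.

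Per kb of peak width, EEF1A1 had the highest level in every library, from 1157 to 2830 CPM per kb. EEF2, EEF1G and EIF5A followed in 143B NC at 342, 341 and 340 CPM per kb, 3 levels that did not differ in order beyond counting error, and EIF4G2 came next at 288. EIF2AK3 was lowest in all 4 libraries, at 2.23 to 5.22. Between the control libraries, HOS exceeded 143B in 42 of 45 members, with a median log2 difference of 0.92, where 63.0% of protein-coding genes were higher in HOS and the median was 0.37. At a mean sum of at least 100 it was 33 of 35 members (median 0.96), beside 71.4% of protein-coding genes (median 0.61). The TMM factor was 0.731 for HOS NC and 0.993 for 143B NC, which raises every HOS level against 143B. This split was not recomputed with other scaling. Between the libraries labelled sgNAT10, 22 of 45 members were higher in HOS (median -0.02), where 50.4% of protein-coding genes were. The edgeR test of cell line across genotypes called 1 of 8109 genes (0.0123%) and 0 of 45 members. None of the 45 reached an unadjusted p under 0.05 with edgeR, 3 did with DESeq2, which called 0 members, and the smallest adjusted p among members was 0.838 with edgeR.

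In 143B the shift of a peak went with its place along the gene. For 37 members the RefSeq start table gives the strand, so a peak could be placed between the start and the finish of the gene span, and peaks with a mean count of at least 50 were compared. The 14 peaks within 500 bp of a finish, each in a different gene, lay around a median of 0.91 in 143B (13 above 0) and -0.72 in HOS (0 above 0). Over all protein-coding genes 85.2% of 891 such peaks were above 0 in 143B (median 0.81) and 14.8% in HOS (median -0.69). The 49 peaks farther than 500 bp from both start and finish had a median of -0.44 in 143B, with 23 above 0, and -0.63 in HOS, with 3 above 0. For all protein-coding genes, 26.0% of 4069 such peaks were above 0 in 143B (median -0.91) and 48.5% in HOS (median -0.04). Near the finish the members thus lay close to other genes in both lines, and away from the ends they lay higher than others in 143B and lower in HOS. This difference was not tested.

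The clearest case was EEF2, on the minus strand of chromosome 19, whose 5 peaks span the gene. From start to finish the counts in 143B went from 1877 in NC to 673 in sgNAT10, 1768 to 848, 1318 to 850, 1397 to 842 and 1044 to 2784. The shifts were -1.98, -1.56, -1.13, -1.23 and 0.92, so only the last peak (chr19:3976079-3976280), 23 bp from the finish, was higher in the library labelled sgNAT10. In HOS the same peaks lay at 0.31, 0.08, -0.11, -0.23 and -0.14. The gene sum of EEF2 in 143B therefore joins peaks of opposite direction.

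EIF4G2 had 3 inner peaks at -1.47, -1.63 and -1.74 in 143B and a last peak, 52 bp from the finish, at 1.11, with 299 counts in NC and 910 in sgNAT10. In HOS all 4 of its peaks lay between -1.48 and -1.36. EEF1G had -1.06, -0.82 and -0.75 and then 0.92 at the finish in 143B, against -0.91 to -0.08 in HOS. EIF4G1, whose first peak overlaps the start of the gene, had -1.58, -1.73 and -2.02 in its first 3 peaks and -0.01 at the finish in 143B, against -0.59 to -0.57 and then -1.18 in HOS. EIF4H and EIF3B had 2 peaks each, the earlier at -1.36 and -1.11 and the one at the finish at 1.34 and 0.99 in 143B, where HOS had -1.53 and -1.60, then -0.84 and -1.21.

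**Figure D3:**
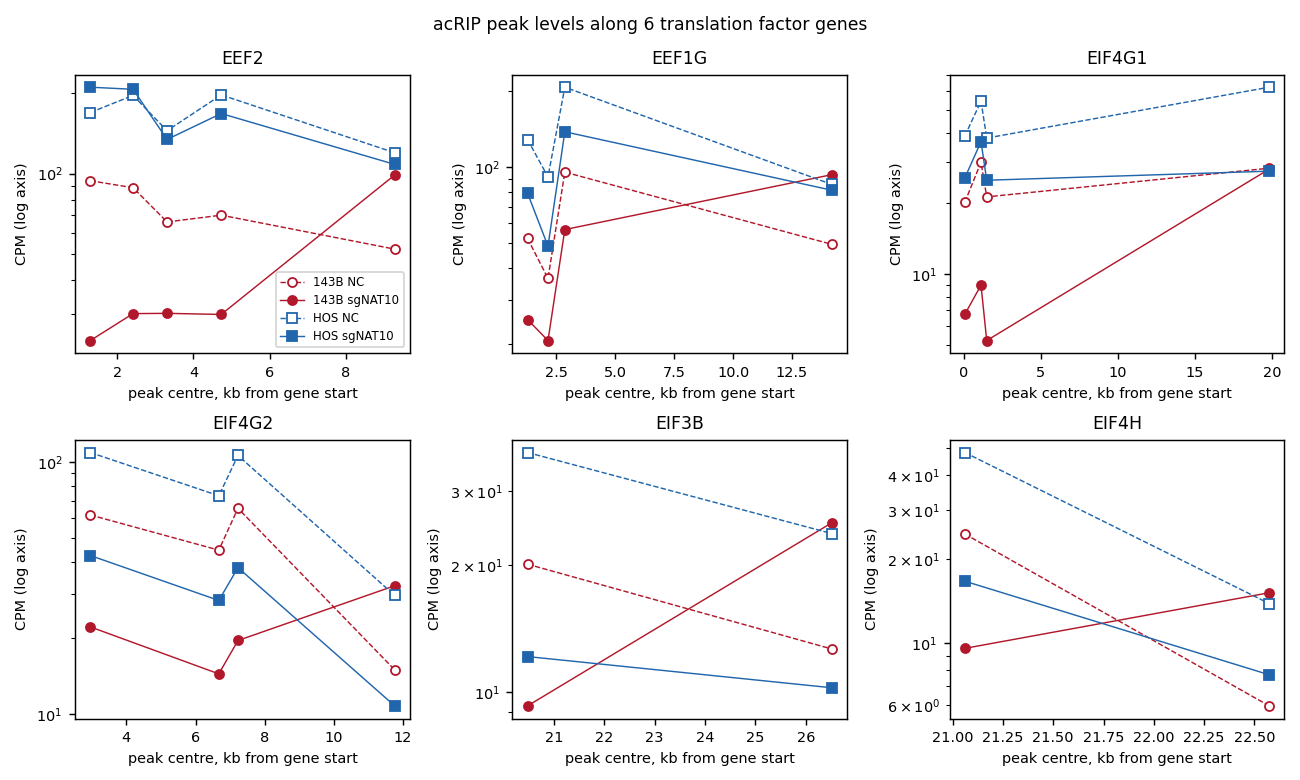
CPM of each peak (log axis) against the distance of its centre from the gene start in kb, for EEF2, EEF1G, EIF4G1, EIF4G2, EIF3B and EIF4H, with open symbols and dashed lines for NC and filled symbols for sgNAT10, 143B in red and HOS in blue. The red filled line crosses or meets the red open line towards the finish in each gene, while in HOS the sgNAT10 line stays below NC at every peak of EEF1G, EIF4G1, EIF4G2, EIF3B and EIF4H and crosses NC in EEF2 (0.31 at the first peak, -0.14 at the last).

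Of the 23 members with several peaks, whatever their counts or strand, 14 held peaks of both signs in 143B and 3 in HOS, so a gene sum near 0 in 143B need not mean that its peaks were level. Any sign was counted, as for EIF3C in 143B, at -1.23 and 0.01 (-0.19 to 0.20). The same count was not made over all protein-coding genes, so it does not set the members apart. Of 9 members with peaks both near the finish and elsewhere, 9 had the higher shift near the finish in 143B, by a median of 1.73, and 6 in HOS, by a median of 0.18. Over 298 protein-coding genes 94.0% did so in 143B (median 1.38) and 62.1% in HOS (median 0.12), so the members were close to the background. Of 21 members with several such peaks, 18 had a wider range of peak shifts in 143B than in HOS, against 78.8% of 1197 protein-coding genes, with median ranges of 1.31 and 0.47. EEF1A2 was among the exceptions. All 8 of its peaks were lower in 143B sgNAT10, from -1.57 to -0.62, and in HOS they lay between -0.04 and 0.94. EIF4B was also uniform, with 3 peaks at -1.47 to -1.13 in 143B and -0.94 to -0.65 in HOS, the last of them 1090 bp from the finish. EIF4E held 2 peaks of opposite direction in 143B, an inner one that went from 125 to 37 counts (-2.22) and one 751 bp from the finish that went from 6 to 48 (2.34).

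**Figure D4:**
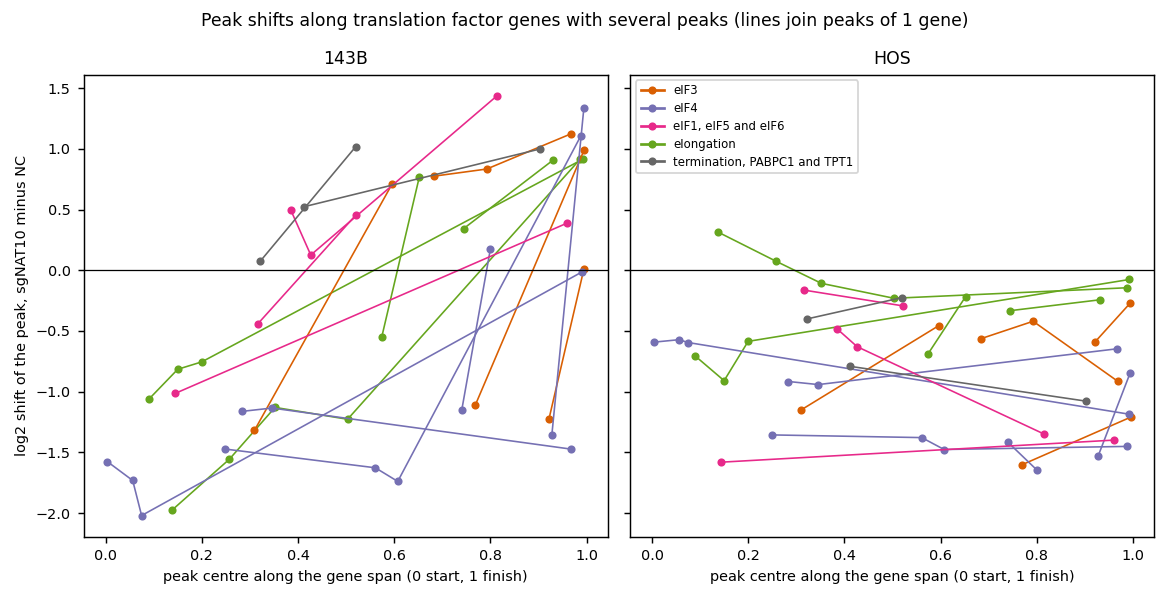
Log2 shift of each peak (sgNAT10 minus NC) against its place along the gene span from start (0) to finish (1), for members with a known strand and several peaks with a mean count of at least 50, with lines that join peaks of 1 gene and colours for role groups. In 143B most lines run upwards to the right, from as low as -2.02 to 1.44, while in HOS most lines are flat and lie below 0.

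The size of the group medians depended on which peaks were counted, while eIF4 stayed below elongation in both subsets of peaks and both lines. Here each median is relative to all protein-coding genes counted from the same kind of peak. From peaks within 500 bp of a gene end alone, the eIF4 median was 0.0039 in 143B and -0.35 in HOS, on 5 genes. That of elongation was 0.17 and 0.50, on 5 genes. From the other peaks eIF4 lay at -1.02 and -1.12, on 9 genes, and elongation at -0.60 and -0.38, on 6 genes.

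The 11 members known as TOP mRNAs (EEF1A1, EEF1B2, EEF1D, EEF1G, EEF2, EIF3E, EIF3F, EIF3H, EIF4B, PABPC1 and TPT1) lay around a median of -0.03 in 143B (5 above 0) and -0.32 in HOS (2 above 0). The other 34 tested members had 0.44 and -0.60, with 22 and 4 above 0. The ranges overlapped, from -1.26 to 0.82 and from -1.14 to 1.45 in 143B, and from -1.18 to 0.01 and from -1.50 to 0.40 in HOS. Grouped instead by the letters at their annotated starts, the 10 genes with the pyrimidine tract shown above had medians of 0.62 and -0.56, and the 26 tested genes without it had 0.15 and -0.74. Over all tested protein-coding genes the 425 with a tract had 0.37 and -0.26 and the 4684 without had 0.13 and -0.12, so in HOS the side that is higher differs from that of the members. In 143B the 2 groupings thus differ in which side is higher.

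Among other genes of protein synthesis, the 78 cytosolic ribosomal protein genes had a median of 0.59 in 143B, with 72 above 0, and -0.38 in HOS, with 75 below 0. Of these 78, 69 (88.5%) lay above 0 in 143B and below 0 in HOS, where 24 of the 45 translation factor genes (53.3%) did. Of 22 cytosolic aminoacyl-tRNA synthetase genes and their scaffolds, which charge tRNAs, 17 were tested and 0 passed the edgeR test. In 143B 12 were above 0 (median 0.39), and in HOS 13 were below 0 (median -0.35). Among those with a mean sum of at least 100, MARS1 (-0.82 and -0.47) and KARS1 (0.27 and -1.49) had the lowest mean shifts, and QARS1 (1.67 and -0.47) and SARS1 (0.39 and 0.78) the highest. Of 29 regulators of translation and recycling factors 21 were tested and 0 passed, with 12 above 0 in 143B (median 0.11) and 18 below 0 in HOS (median -0.65). G3BP1, a core protein of stress granules, lay at -0.45 and -1.64 and ATF4, the transcription factor whose translation rises when eIF2 is phosphorylated, at -1.18 and -0.68. NACA, of the nascent chain complex, lay at 0.91 and -0.18 and DENR, of ribosome recycling, at 0.54 and -0.85.

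Processed pseudogenes resemble the mRNAs of several members, and how reads that map to several places were handled is not given in the sources used here. EEF1A1P5 held 7330 and 9594 counts in 143B and 14331 and 12489 in HOS, where EEF1A1 held 9703, 13406, 21068 and 18219. Its shifts of -0.11 and -0.55 were near the -0.03 and -0.56 of EEF1A1. EEF1A1P6 (1.15 and -0.05), EEF1B2P6 (1.14 and 0.03) and EIF3FP3 (2.03 and -0.53) also held peaks, as did EIF4A1P6 (17 to 25 counts per library) and EIF3JP2 (0 to 20 counts). The values of EEF1A1, EEF1B2, EIF3F, EIF4A1 and EIF3J are uncertain in this respect. Of the 93 peaks, 5 also overlap another annotated gene, among them the peak of EIF4A1 (SENP3-EIF4A1) and that of PABPC1 (MIR7705).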

How the data were processed

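Fragmented poly(A) RNA of 143B and HOS cells was immunoprecipitated with an anti-ac4C antibody, with 1 library per line and genotype (4 libraries). The authors deposited raw read counts over the same 31395 peak intervals for each line. GRCh38, FastQC, STAR, SAMtools and deepTools are named in the submitters' processing notes. The peak caller, the counter, the strand setting and the treatment of multi-mapping reads are not given in the sources used here. All of these bear on genes with close copies.

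Peaks were assigned to the single protein-coding gene whose RefSeq span (GRCh38.p14) they overlapped, readthrough genes aside, and summed per gene. Peaks over no protein-coding gene went to another gene if they overlapped only that one. Peaks over more than 1 protein-coding gene were left out of all gene sums. TMM factors came from the peaks that passed edgeR's filter on low counts, with library totals over all peaks. Genes were filtered with edgeR's filterByExpr defaults (minimum count 10, minimum total 15), and log2 CPM used a prior count of 1. The edgeR 4.0.16 quasi-likelihood test had genotype and cell line as terms, with DESeq2 1.42.0 and limma 3.58.1 as alternatives (R 4.3.3), and was tested on simulated data. Intervals cover counting error only, and PCR duplicates are not independent molecules. P-values measure only the spread between these libraries. Named members had a mean sum of at least 100 counts, an interval without 0 in both lines, or the highest or lowest shift of their role group, and further members were named after their values were seen. Of other genes, NAT10 and the 2 highest and 2 lowest of each pathway list were named. The members and lists were chosen with earlier results of these data known. The 143B table also holds 7 unnamed columns without values.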

Additional observations from a re-analysis of the deposited data

Results flagged for a closer look

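For 16 members the shifts in the 2 lines had opposite signs, each with a counting interval that did not include 0. Of 6299 protein-coding genes 26.3% met the same rule. Deeper counts give narrower intervals, and the members are deeper. A mean sum of at least 100 was reached by 35 of the 45 tested members, beside 2803 of the 6299 protein-coding genes. The share at equal depth was not computed. With library totals alone 10 of the 16 kept opposite signs, and 6 of them (EIF4E2, EIF6, EIF4A3, EIF4A1, GSPT1 and EEF1A2) kept both intervals away from 0. With RLE or upper quartile factors all 16 kept both. With 1 library per line and genotype the difference between the lines was not tested. As the shift in 143B minus that in HOS, EIF4E2 had 2.44, EIF6 2.38, EIF2B2 2.16, EIF4A3 1.90, EIF4A1 1.70 and EIF2A 1.63. GSPT1 had 1.55, EIF3L 1.51, EIF3J 1.5, EIF2S2 1.42, EIF4A2 1.23 and EIF5 1.17. EEF1B2 had 1.01, PABPC1 0.975 and TPT1 0.937. EEF1A2, at -1.43, was the only one of the 16 that was lower in 143B and higher in HOS. All of these differences rest on the 143B library labelled sgNAT10, which correlated least with the others and in which the NAT10 peak was not lower than in NC. The part of that library in these differences was not tested.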

How the results depend on the processing

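Group medians here are relative to all protein-coding genes. For a subset of genes or peaks, the protein-coding genes were cut in the same way. Of the values recomputed, 157 stayed within a tolerance (the median width to either side of the members' counting intervals, or 1.5 times for a count) and 35 moved. Within it, eIF3 in 143B turned from 0.13 to -0.031 with genes whose peaks are all under 300 bp, all members in 143B went from 0.24 to 0.063 with peaks away from the ends, and 13 members in place of 9 were 2-fold lower in HOS with RLE factors. Other scaling added -0.09 (RLE), 0.21 (upper quartile) or 0.34 (library totals) to every log2 shift in 143B and -0.16, -0.09 or 0.58 in HOS. Such an addition can hardly change medians relative to all protein-coding genes, so those among the 157 under other scaling show no stability. Medians not set against other genes did move. That of the eIF2 group in HOS went from -0.57 to 0.0030 with library totals. Other scaling left 3, 12 or 16 members 2-fold higher in 143B (6 in the report). Upper quartile and totals left 1 and 0 that were 2-fold lower in 143B (6 in the report), and totals left 0 in HOS (9 in the report). At a mean sum of at least 100, 3 members were 2-fold higher in 143B. The medians were then 0.42 for eIF3, -0.19 for eIF4, -0.074 for elongation and 0.84 for termination in 143B, and -0.62 for eIF1, eIF5 and eIF6 and -0.057 for elongation in HOS. At that cut-off elongation kept its 7 genes and termination its 3. Their medians moved only because those of protein-coding genes were then -0.18 in 143B and -0.22 in HOS. From peaks within 500 bp of a gene end, 0 of 18 members in 143B and 3 of 18 in HOS were 2-fold lower (6 and 9 of 45 in the report), with medians of 0.0039 (eIF4) and 0.17 (elongation) in 143B and 0.047 (all members), 0.31 (eIF3), -0.35 (eIF4) and 0.50 (elongation) in HOS. From the other peaks 11 of 37 members were 2-fold lower in 143B, with medians of -1.02 (eIF4) and -0.60 (elongation) there and -1.12 and -0.38 in HOS. With only genes whose peaks are all under 300 bp, elongation lay at -0.52 in 143B. With the highest peak of each gene, 11 members were 2-fold lower in 143B, elongation lay at -0.81 there (eIF4 at -0.79) and -0.10 in HOS, and termination at 0.77 in 143B. The cell line test called 1 gene with edgeR, 0 with RLE factors, 0 with peaks in place of gene sums, 0 with limma-trend and 4 with DESeq2. Part of each count from a subset of peaks is the smaller number of genes. Other causes were not tested. Role groups with under 3 members left have no value. The genotype test pairs NC with sgNAT10 within each line. Without that cell line block edgeR also called 0 of 8109 genes (283 at an unadjusted p under 0.05). The labels carry no replicate numbers, and with 1 library per group none could be left out within a line. Depth limits the genes with under 100 counts, whose intervals were widest.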
